A study of Saccharomyces cerevisiae with 9 samples.

Results

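The DAN and TIR genes of budding yeast encode mannoproteins that the cell places in its wall when oxygen is scarce, and CWP1 and CWP2 encode mannoproteins of the aerobic wall. The set listed for study was DAN1, DAN4, TIR1, TIR2, TIR3, TIR4, CWP1 and CWP2, picked by name. Of these 8 genes, 7 were matched by their locus tag among the 5205 genes measured, and CWP2 (YKL096W-A) was not analysed here. The genes were chosen with their log2 fold changes in all 3 comparisons of these libraries already known, so their values, and the counts of them called by edgeR, are given as a description and support nothing.

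The libraries came from Saccharomyces cerevisiae strain W303, 3 from each of 3 groups, and the labels call them biological replicates. WT-red were red colonies with wild-type CDC13. K504E-red and K504E-white were red and white colonies of a strain with the cdc13-K504E substitution in Cdc13, the protein that binds single-stranded telomeric DNA. Every group spent 15 days in YPD, a rich medium, as an undiluted stationary culture. White wild-type colonies were not among the groups, so in K504E-white against WT-red the mutation and the colour cannot be told apart. The labels name no drug, no low-oxygen culture and no second strain, and do not say whether libraries of a group came from separate cultures. If they did not, the spread between them may be technical.

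The DAN and TIR proteins are serine-rich mannoproteins attached to the wall through a GPI anchor, and belong to the same protein family as the seripauperins. In air their genes are kept silent by repressors that depend on heme, such as Rox1 and Mot3, and by the general corepressor Tup1 with Cyc8. When oxygen, heme and sterols run low, Upc2 activates them while expression of CWP1 and CWP2 goes down, so the wall exchanges an aerobic for an anaerobic coat.

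Library totals lay between 27388755 and 34634199 counts, and a floor of 3 counts corresponded to 0.0834 to 0.110 CPM, the count scaled to the library total. Replicates of a group correlated at 0.992 to 0.995 across genes, which are not independent, on the log2 CPM scale. CDC13 itself had 25.2 ± 2.15 CPM in WT-red, against 27.7 ± 5.18 in K504E-red and against 21.2 ± 0.507 in K504E-white (SD, n = 3 each), and counts per gene do not show the amino acid change. ADE2, whose loss colours W303 colonies red, had 86.2 ± 9.97 CPM in WT-red, against 121 ± 8.55 in K504E-red and against 439 ± 14.7 in K504E-white (SD, n = 3 each). STE2, a marker of mating type a, had a mean of 547 to 686 CPM in the 3 groups, and STE3, a marker of mating type alpha, 1.09 to 3.11 CPM.

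Positions are given on the W303 contigs named in the deposited tables. DAN4 (YJR151C, contig 84, 12054 to 15476) and DAN1 (YJR150C, contig 84, 18024 to 18920) stood in tandem on the plus strand, with 2547 bp between them. TIR2 (YOR010C, contig 133, 112999 to 113754, plus strand) and TIR4 (YOR009W, contig 133, 114151 to 115578, minus strand) faced each other with 396 bp between them. TIR1 (YER011W, contig 46, 74022 to 74714, minus strand), TIR3 (YIL011W, contig 52, 8737 to 9546, plus strand) and CWP1 (YKL096W, contig 213, 58480 to 59199, plus strand) had no other member beside them. Gene lengths ran from 693 bp for TIR1 to 3423 bp for DAN4. No member overlapped another gene.

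The deposited annotation gave the Pfam family PF00660, seripauperin and TIP1, to 9 genes. They were the 6 DAN and TIR genes together with TIP1, PAU3 and PAU17, and CWP1 did not carry that entry. In the reference genome of strain S288C, the closest match of a member to any other gene reached 80.0% identity, over 100 bp between CWP1 and TIR2. DAN1 matched PAU3 at 76.9% over 247 bp, and TIR4 matched TIR1 at 74.0% over 311 bp. None of these reached the 95% identity used here to mark genes whose reads could be exchanged.

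The DAN and TIR genes divided into 3 kinds by their levels. DAN1 and TIR1 were lowest in K504E-red and highest in K504E-white by a wide margin. TIR3 and TIR4 were higher in K504E-white with little separation of the red groups. In DAN4 and TIR2 the white libraries overlapped both red groups, and TIR2 was slightly higher in K504E-red than in WT-red. CWP1, the aerobic gene, was also highest in K504E-white. Levels that are compared between genes are given as FPKM, the deposited value per gene length and library depth. Fold changes were fitted to counts and are given on the log2 scale with their standard error (SE). Because RNA came from whole populations, fewer cells with a transcript and less transcript per cell cannot be told apart.

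**Figure D1:**
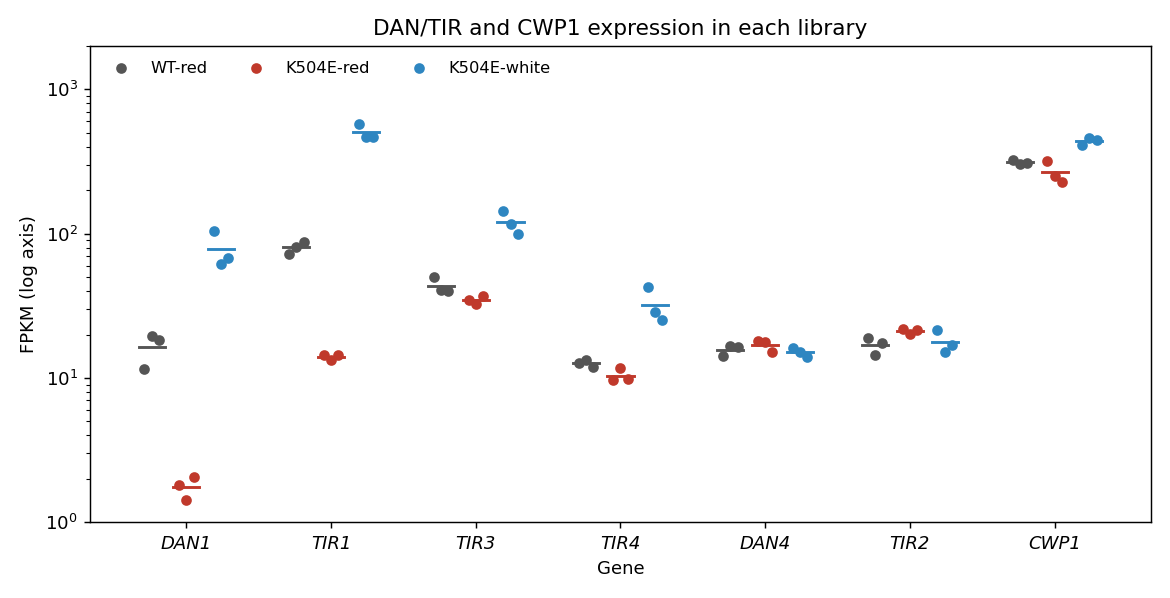
FPKM of each gene in each library, on a log axis. Points are single libraries, short lines are group means, and colours mark the 3 groups. DAN1 and TIR1 spread farthest, from 1.77 to 78.0 FPKM and from 14.0 to 505 FPKM between the K504E-red and K504E-white means. DAN4 points of all groups overlap, and TIR2 points of K504E-red lie just above those of WT-red.

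TIR1, first known as a serine-rich protein induced by cold and needed for growth without oxygen, had 72.7, 81.0 and 88.0 FPKM in WT-red replicates 1, 2 and 3. It had 14.4, 13.3 and 14.3 FPKM in K504E-red and 574, 471 and 471 FPKM in K504E-white. The K504E-red libraries were the lowest and the K504E-white libraries the highest, and no groups overlapped. The underlying counts were 254 to 326 in K504E-red, 1432 to 2008 in WT-red and 10847 to 13752 in K504E-white, all well above the floor. On the log2 scale the fitted difference was -2.51 (SE 0.0976) between the red groups, 2.65 (SE 0.0854) for white colonies against WT-red and 5.16 (SE 0.101) for white colonies against K504E-red. The last of these is a 35.7-fold difference between colonies of the same labelled genotype. In rank among 5205 genes by mean FPKM, TIR1 stood at 1976 in WT-red, against 4627 in K504E-red and against 335 in K504E-white.

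DAN1, a mannoprotein gene known for near silence in air, had 11.5, 19.5 and 18.3 FPKM in WT-red replicates 1, 2 and 3. It had 1.81, 1.42 and 2.07 FPKM in K504E-red and 105, 61.3 and 67.6 FPKM in K504E-white. Its groups followed the same order as those of TIR1 with no overlap, and the spread within WT-red and within K504E-white was wider. K504E-red libraries held 35 to 61 counts of DAN1, against 293 to 626 in WT-red and 1897 to 3260 in K504E-white. On the log2 scale its fitted difference was -3.20 (SE 0.331) between the red groups, 2.24 (SE 0.250) for white colonies against WT-red and 5.44 (SE 0.323) for white colonies against K504E-red. The last is 43.4-fold. By rank DAN1 was 4519 in WT-red and 2029 in K504E-white, and near the bottom of the table, at 5128, in K504E-red.

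TIR3, another mannoprotein gene needed for anaerobic growth, had 50.2, 40.5 and 40.3 FPKM in WT-red. It had 34.7, 32.4 and 37.0 FPKM in K504E-red and 143, 117 and 99.1 FPKM in K504E-white. The K504E-white libraries were well above the other groups, and the K504E-red libraries were below WT-red by a small margin. The log2 fold change was 1.46 (SE 0.123) against WT-red, 1.78 (SE 0.125) against K504E-red, and -0.32 (SE 0.126) between the red groups.

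TIR4, the remaining TIR gene with a known need in anaerobic growth, had 12.7, 13.3 and 11.9 FPKM in WT-red. It had 9.67, 11.7 and 9.80 FPKM in K504E-red and 42.9, 28.7 and 25.1 FPKM in K504E-white. As with TIR3, the white libraries were highest, and the highest K504E-red library lay just under the lowest WT-red library. The log2 fold change was 1.36 (SE 0.163) against WT-red, 1.63 (SE 0.166) against K504E-red and -0.27 (SE 0.168) between the red groups.

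DAN4, the longest member, had 14.1, 16.7 and 16.4 FPKM in WT-red. It had 17.9, 17.7 and 15.1 FPKM in K504E-red and 16.0, 15.2 and 13.9 FPKM in K504E-white, so all groups overlapped. Its log2 fold changes were 0.11 (SE 0.0871) between the red groups, -0.06 (SE 0.0871) for white colonies against WT-red and -0.17 (SE 0.0871) for white colonies against K504E-red. TIR2, a cold-induced relative of TIR1, had 19.0, 14.5 and 17.5 FPKM in WT-red. It had 21.9, 20.1 and 21.6 FPKM in K504E-red and 21.4, 15.2 and 16.8 FPKM in K504E-white. Here the K504E-red libraries lay just above WT-red, while the white libraries overlapped both red groups. The log2 fold change of TIR2 was 0.33 (SE 0.150) between the red groups, 0.07 (SE 0.150) for white colonies against WT-red and -0.26 (SE 0.149) for white colonies against K504E-red.

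CWP1, a mannoprotein of the aerobic wall, ranked 573, 663 and 383 of 5205 genes by mean FPKM in WT-red, K504E-red and K504E-white. It had 325, 306 and 307 FPKM in WT-red. It had 318, 252 and 228 FPKM in K504E-red and 409, 458 and 449 FPKM in K504E-white. The red groups overlapped, and every white library exceeded every red library. The log2 fold change was -0.22 (SE 0.102) between the red groups, 0.49 (SE 0.102) for white colonies against WT-red and 0.71 (SE 0.102) for white colonies against K504E-red. The highest CWP1 values were thus in the group with the highest DAN1, TIR1, TIR3 and TIR4 values.

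**Figure D2:**
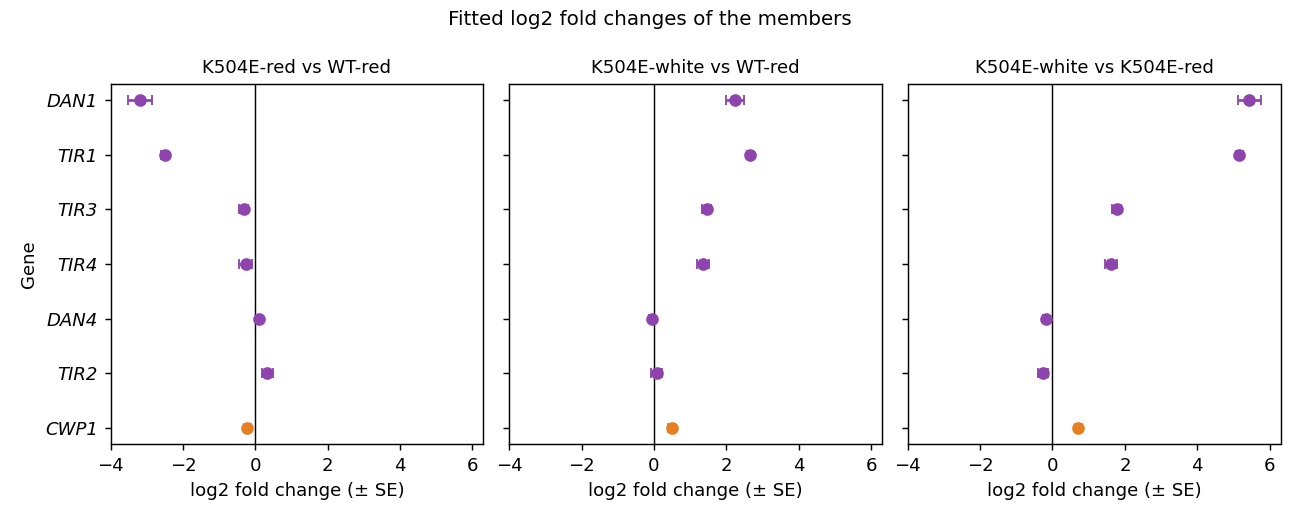
Fitted log2 fold change with its SE for each member in the 3 comparisons, all on the same axis, with DAN and TIR genes in purple and CWP1 in orange. The change is largest for DAN1 and TIR1, which lie at -3.20 and -2.51 in K504E-red against WT-red and at 5.44 and 5.16 in K504E-white against K504E-red, and DAN4 lies within 0.17 of 0 in each comparison.

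All 7 measured members passed the filter on low counts. In K504E-red against WT-red, edgeR called 47.1% of the 5172 genes tested at an adjusted p under 0.05, 25.5% higher and 21.6% lower, and libraries were fully apart between the groups in 54.6%. Of the 6 DAN and TIR genes, 0 were called higher and 2, DAN1 and TIR1, lower, 5 had groups that did not overlap, and their median log2 fold change was -0.29 against 0.03 over all genes. Leaving out K504E-white replicate 1, which is not in this comparison but shares its estimate of spread, made the number called lower 4. In K504E-white against WT-red, 46.9% of all genes were called, 23.4% higher and 23.5% lower, and groups did not overlap in 56.1%. There 4 DAN and TIR genes were called higher, without overlap, and 0 lower, with a median of 1.41 against -0.01 over all genes. In K504E-white against K504E-red, 54.5% of all genes were called, 27.2% higher and 27.3% lower, and groups did not overlap in 61.9%. DAN1, TIR1, TIR3 and TIR4, the 4 genes called in the previous comparison, were called higher, without overlap, and 0 lower, with a median of 1.70 against -0.00 over all genes. CWP1 was called higher in both white comparisons and was not called between the red groups. Since these comparisons were known when the genes were chosen, nothing is read from the counts, and both comparisons with WT-red share its libraries.

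The order of the members by FPKM changed from group to group. In WT-red, CWP1 led with 312 ± 10.4 FPKM, followed by TIR1 with 80.6 ± 7.66 and TIR3 with 43.6 ± 5.65 (SD, n = 3). TIR2, DAN1, DAN4 and TIR4 followed with means of 17.0, 16.4, 15.7 and 12.6 FPKM. The libraries of TIR2 overlapped those of DAN1, and those of DAN1 overlapped those of DAN4, while every TIR4 library lay below every DAN4 library. In K504E-red the order was CWP1 with 266 ± 46.8, TIR3 with 34.7 ± 2.28, TIR2 with 21.2 ± 1.00, DAN4 with 16.9 ± 1.56, TIR1 with 14.0 ± 0.632, TIR4 with 10.4 ± 1.13 and DAN1 with 1.77 ± 0.331 FPKM. No neighbours overlapped in that order. In K504E-white, TIR1 led with 505 ± 59.4 FPKM, above CWP1 with 439 ± 26.5, and then came TIR3 with 120 ± 22.2 and DAN1 with 78.0 ± 23.7. TIR4 with 32.2 ± 9.39, TIR2 with 17.8 ± 3.20 and DAN4 with 15.1 ± 1.05 FPKM closed that order. The libraries of TIR3 overlapped those of DAN1, and those of TIR2 overlapped those of DAN4.

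Added together, the 6 DAN and TIR genes came to 186 ± 6.13 FPKM in WT-red, against 99.0 ± 2.11 in K504E-red and against 768 ± 117 in K504E-white (SD, n = 3). The TIR1 share of that sum was 43.3% in WT-red, against 14.2% in K504E-red, and against 66.0% in K504E-white. DAN1 and TIR1 together gave 52.1%, 16.0% and 76.0%. Most of the difference in the sum thus lay in these genes. The other 4 genes summed to 89.0 ± 6.02 FPKM in WT-red and 83.2 ± 1.22 in K504E-red, and to 185 ± 35.2 in K504E-white.

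The summed DAN and TIR level stood at 0.555, 0.606 and 0.628 times the CWP1 level in the WT-red libraries. The ratio was 0.316, 0.384 and 0.439 in K504E-red and 2.21, 1.55 and 1.54 in K504E-white. No groups overlapped, and only in the white libraries did the anaerobic genes together exceed CWP1. The mean ratio was 0.596 ± 0.0372, 0.379 ± 0.0615 and 1.77 ± 0.384 in that order of groups (SD, n = 3). CWP2, the other aerobic gene of the set, is not in this ratio. On the log2 scale the ratio differed by -0.66 between the red groups, 1.55 in K504E-white against WT-red and 2.21 in K504E-white against K504E-red. Taking CPM in place of FPKM, which gives long genes such as DAN4 more weight, brought these to -0.33, 1.22 and 1.55. With a geometric mean in place of the sum, which gives each gene the same weight, they were -0.74, 0.79 and 1.52. The geometric mean lay below CWP1 in all 9 libraries, at 0.0386 to 0.174 times its level, so only the sum exceeded CWP1.

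**Figure D3:**
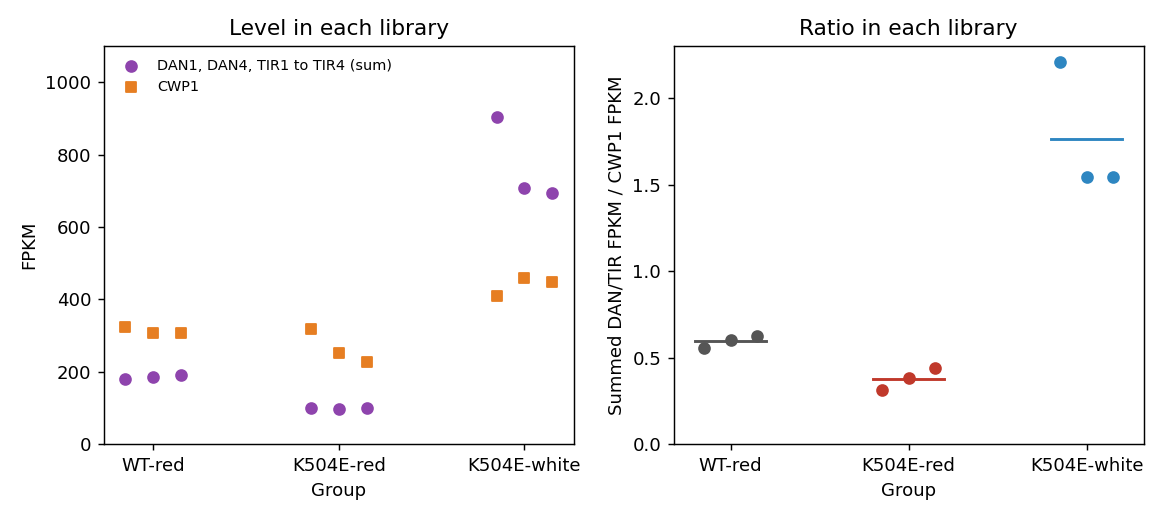
Left, summed FPKM of the 6 DAN and TIR genes and FPKM of CWP1 in each library. Right, their ratio in each library with the group mean as a line. The sum exceeds CWP1 in the 3 white libraries, with ratios of 1.54 to 2.21, and lies below it in the 6 red libraries, with ratios of 0.316 to 0.628.

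K504E-white replicate 1 had the highest level of the 3 white libraries for all 6 DAN and TIR genes and the lowest for CWP1, and it was the highest white library for 31.4% of all tested genes. Without it, the median log2 fold change of the 6 genes was 1.17 in place of 1.41 against WT-red and 1.50 in place of 1.70 against K504E-red. DAN1 then stood at 5.17, TIR1 at 5.06, TIR3 at 1.63 and TIR4 at 1.37 on the log2 scale in K504E-white against K504E-red. CWP1 stood at 0.76. The order of the genes by size of difference was as before.

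Genes side by side on a contig did not have the same pattern. The ratio of DAN1 to its tandem neighbour DAN4 in FPKM was 1.03 ± 0.190 in WT-red, against 0.106 ± 0.0290 in K504E-red and against 5.14 ± 1.30 in K504E-white (SD, n = 3). The ratio of TIR4 to TIR2, which face each other, was 0.754 ± 0.143, 0.492 ± 0.0786 and 1.79 ± 0.267 in the same order. DAN1 and TIR1 lie on different contigs, and the ratio of DAN1 to TIR1 was 0.202 ± 0.0416, 0.125 ± 0.0191 and 0.152 ± 0.0276. That pair was picked after its genes were seen to follow the same order of groups, so its narrower range follows from the choice. Other genes on different contigs did differ. TIR1 had means of 80.6, 14.0 and 505 FPKM, and DAN4 had 15.7, 16.9 and 15.1 FPKM. Whether position plays a part was not tested.

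The 2 nearest genes on either side of each member or adjacent pair gave 20 neighbours, and none of them is a member. In K504E-white against K504E-red, 1 neighbour rose and 8 fell, which is 45% called against 54.5% of all genes, with a median log2 fold change of -0.16. SGT2, a chaperone cofactor gene beyond TIR4, fell by 0.82 (SE 0.0492, adjusted p 2.90e-11 by the quasi-likelihood test of edgeR, Benjamini-Hochberg adjusted). PRE1, a proteasome subunit gene next to TIR1, fell by 0.74 (SE 0.0520), and DOT5, a peroxidase gene next to TIR3, fell by 0.52 (SE 0.0703). FAA3, an acyl-CoA synthetase gene beyond DOT5, was the neighbour that rose, by 0.44 (SE 0.0895, adjusted p 0.000357 by edgeR). AUS1, the sterol importer gene beside TIR2, was at 29.8 ± 5.42, 32.2 ± 2.84 and 30.4 ± 1.48 CPM in WT-red, K504E-red and K504E-white (SD, n = 3), and its log2 fold change of -0.08 (SE 0.116) in K504E-white against K504E-red did not pass the test.

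Among the same neighbours, 5 rose and 2 fell in K504E-red against WT-red, which is 35% called against 47.1% of all genes. DOT5 rose by 0.50 (SE 0.0704), YJR149W by 0.41 (SE 0.118) and MTC2 by 0.31 (SE 0.0692), and FAA3 fell by 0.71 (SE 0.0894) and NTF2 by 0.20 (SE 0.0544). The call of YJR149W was lost without WT-red replicate 1 (adjusted p 0.0694 by edgeR), and likewise when K504E-red replicate 3 was left out (adjusted p 0.0520 by edgeR). In K504E-white against WT-red, 0 rose and 4 fell, 20% called against 46.9% of all genes, among them PRE1 by 0.61 (SE 0.0519), SGT2 by 0.61 (SE 0.0491) and PGU1 by 0.45 (SE 0.149). The call of PGU1 was lost without WT-red replicate 3 (adjusted p 0.0976 by edgeR) and without K504E-white replicate 1 (adjusted p 0.0505 by edgeR).

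**Figure D4:**
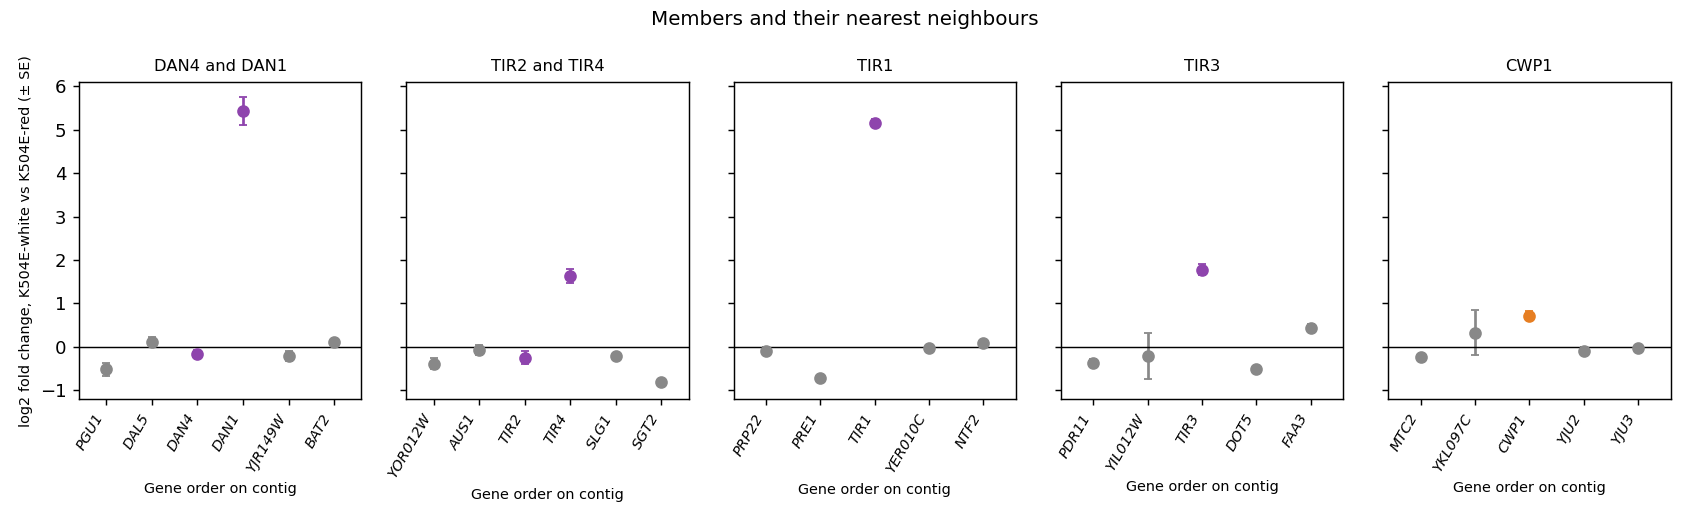
Log2 fold change of K504E-white against K504E-red, with its SE, for members (DAN and TIR in purple, CWP1 in orange) and their nearest neighbours (grey), in their order on the W303 contigs. DAN1 at 5.44 and TIR1 at 5.16 stand above flanking genes that lie between -0.82 and 0.44.

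The members were set beside other genes of the same oxygen response. The gene lists here and below were also chosen with earlier results of these data known. Their called shares and adjusted p values are therefore a description and support nothing. Hypoxic genes whose products lie outside the wall were a list of 8, of which 7 were tested. In K504E-white against K504E-red, where 54.5% of all genes were called and 27.2% called higher, all 7 rose, with a median of 0.77. The smallest of these calls but one, CYC7 at 0.27 (SE 0.0774), had overlapping groups and was lost without K504E-white replicate 1 (adjusted p 0.0514 by edgeR). HEM13, the coproporphyrinogen oxidase gene of heme synthesis, had 534 ± 37.1 CPM in WT-red, against 359 ± 39.3 in K504E-red and against 1296 ± 56.4 in K504E-white (SD, n = 3), and the groups did not overlap. It rose by 1.85 on the log2 scale (SE 0.0736, adjusted p 1.01e-12 by the quasi-likelihood test of edgeR, Benjamini-Hochberg adjusted). FET4, a low-affinity iron transporter gene, rose by 1.19 (SE 0.0509, adjusted p 1.63e-13 by edgeR). AAC3, the hypoxic ADP/ATP carrier gene, gained 0.88 (SE 0.144, adjusted p 3.32e-05 by edgeR). These were smaller than the fitted differences of DAN1 and TIR1, and HEM13 was close in size to TIR3, at 1.78. No test was made of differences in size between genes.

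Between the red groups, 4 of those 7 genes fell and 0 rose, with a median of -0.24. That is 57.1% called against 47.1% of all genes. ANB1, the hypoxic form of a translation factor, fell by 0.74 (SE 0.0599), HEM13 by 0.57 (SE 0.0719) and OLE1, the fatty acid desaturase gene, by 0.51 (SE 0.0656), with an adjusted p of at most 5.97e-06 by edgeR. FET4 fell by 0.24 (SE 0.0506). ANB1 reads are uncertain, because its paralog HYP2, 91.1% identical in the reference strain, was not analysed here. In K504E-white against WT-red, where 46.9% of all genes were called, 5 of the 7 rose (71.4%) and 0 fell, with a median of 0.32. They were HEM13 by 1.28 (SE 0.0723), FET4 by 0.95 (SE 0.0505), AAC3 by 0.73 (SE 0.143), CYC7, the hypoxic cytochrome c, by 0.32 (SE 0.0774), and HMG2, an HMG-CoA reductase, by 0.21 (SE 0.050). OLE1 at 0.11 (SE 0.0654) and ANB1 at 0.04 (SE 0.0594) did not pass.

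Aerobic partners of those genes were a list of 5, of which 4 were tested. HMG1, the HMG-CoA reductase form that prevails in air, had 249 ± 15.3 CPM in WT-red, against 135 ± 8.09 in K504E-red and against 283 ± 67.6 in K504E-white (SD, n = 3). It fell by 0.89 between the red groups (SE 0.157, adjusted p 0.00239 by edgeR) and rose by 1.07 in K504E-white against K504E-red (SE 0.157, adjusted p 0.000643 by edgeR). PET9, which is AAC2, the main aerobic ADP/ATP carrier, rose by 0.13 in that comparison (SE 0.0540, adjusted p 0.0482 by edgeR) and by 0.19 against WT-red (SE 0.0540, adjusted p 0.00669 by edgeR). CYC1, the aerobic cytochrome c, rose by 0.22 in K504E-white against WT-red (SE 0.0748, adjusted p 0.0214 by edgeR). Leaving out single libraries ended the calls of PET9 and CYC1, with an adjusted p of up to 0.228 for PET9 against K504E-red, up to 0.111 for PET9 against WT-red and up to 0.254 for CYC1 by edgeR, each highest without K504E-white replicate 3. COX5A passed no test, at -0.06 (SE 0.0527) against WT-red, where every white library lay below every WT-red library, and at -0.02 (SE 0.0527) against K504E-red. In each white comparison 2 of the 4 aerobic partners were called higher and 0 lower. That is 50% called, against 54.5% of all genes against K504E-red and 46.9% against WT-red. Of all genes, 27.3% and 23.5% were called lower in these comparisons. With only 4 genes tested, nothing is read from the count of 0.

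**Figure D5:**
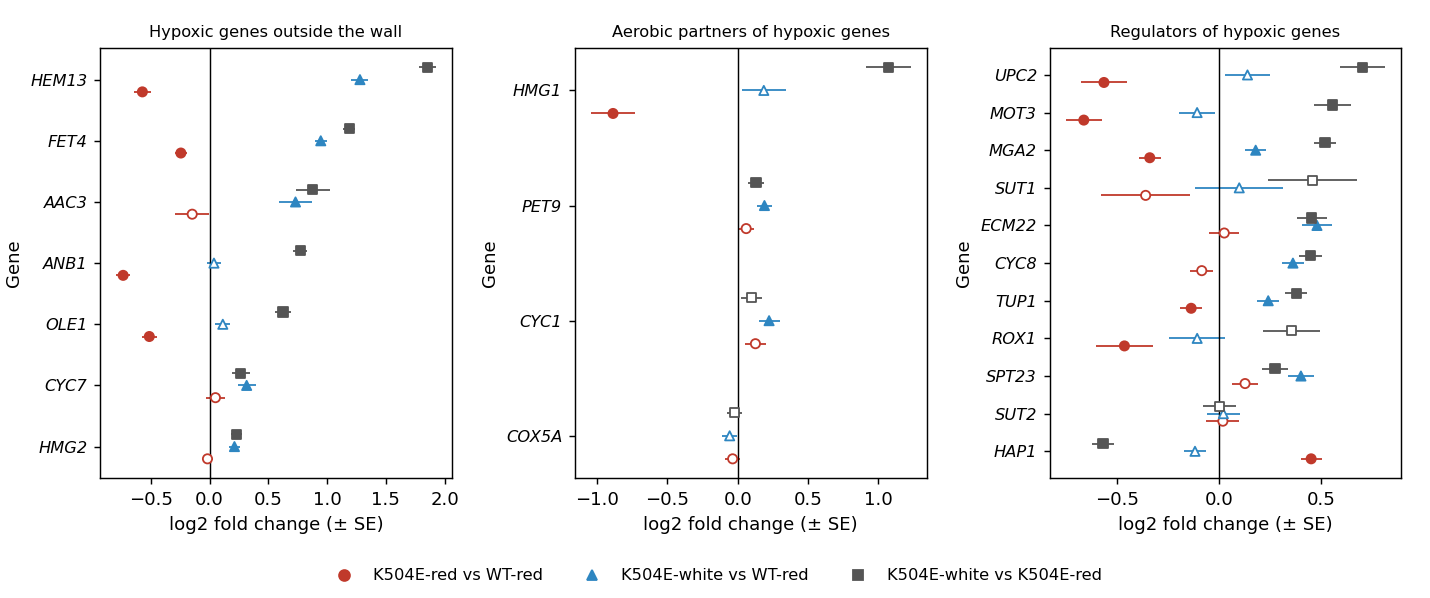
Log2 fold change with SE of hypoxic genes outside the wall, their aerobic partners and regulators, in the 3 comparisons. Filled symbols passed the edgeR test at an adjusted p under 0.05 and open symbols did not; the 3 panels have different axis ranges. HEM13 lies at 1.85 and HMG1 at 1.07 in K504E-white against K504E-red, and HAP1 at -0.57 goes the other way from the other regulators called there.

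Regulators of the hypoxic genes were a list of 11, all tested. UPC2, the activator of DAN and TIR genes, had 55.4 ± 3.42 CPM in WT-red, against 37.4 ± 4.21 in K504E-red and against 61.0 ± 10.3 in K504E-white (SD, n = 3). It fell by 0.57 between the red groups (SE 0.112, adjusted p 0.000629 by edgeR) and rose by 0.71 in K504E-white against K504E-red (SE 0.112, adjusted p 5.33e-05 by edgeR). MOT3, a repressor gene, fell by 0.67 (SE 0.0890) and rose by 0.56 (SE 0.0890) in the same comparisons, so the transcripts of an activator and of a repressor moved the same way. HAP1, the heme-responsive activator of aerobic genes, rose by 0.45 between the red groups (SE 0.0523) and fell by 0.57 in K504E-white against K504E-red (SE 0.0524, adjusted p 1.73e-08 by edgeR). For UPC2, MOT3 and HAP1 the difference between K504E-white and WT-red did not pass the test, at 0.14 (SE 0.110), -0.11 (SE 0.0874) and -0.12 (SE 0.0524). For HAP1 every white library lay below every WT-red library, and its adjusted p of 0.0699 by edgeR passed under either count filter (0.0169 and 0.0162) and when any of 5 single libraries was left out (0.0119 to 0.0484).

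In all, 7 regulators rose and 1 fell in K504E-white against K504E-red, with a median of 0.45. That is 72.7% called against 54.5% of all genes. MGA2, an activator of OLE1, rose by 0.52 (SE 0.0533). Between the red groups 1 rose and 5 fell, which is 54.5% called against 47.1% of all genes. TUP1, of the corepressor, was the least of the 5, at -0.14 (SE 0.0553, adjusted p 0.0472 by edgeR) with overlapping groups. Its call was lost with a replicate block, with limma, and without WT-red replicate 2 or 3 or K504E-red replicate 1, with an adjusted p of up to 0.234. ROX1, the hypoxic repressor, fell by 0.47 (SE 0.140, adjusted p 0.0227 by edgeR), and its adjusted p by edgeR was 0.0761 and 0.0581 when WT-red replicate 2 or 3 was left out, and 0.0820 when K504E-red replicate 1 was. In K504E-white against WT-red 5 rose and 0 fell, which is 45.5% called against 46.9% of all genes. They were led by ECM22, a sterol regulator related to Upc2, by 0.48 (SE 0.0742), SPT23, a relative of MGA2, by 0.40 (SE 0.0648) and CYC8, of the corepressor, by 0.36 (SE 0.0556). TUP1 rose there by 0.24 (SE 0.0551). Against K504E-red, white colonies had TUP1 higher by 0.38 (SE 0.0552) and CYC8 higher by 0.45 (SE 0.0557), and both were called.

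The sterol uptake and seripauperin genes were a list of 26, of which 4 were tested: AUS1, PDR11, PAU3 and PAU17. PDR11, a sterol importer gene, fell by 0.38 in K504E-white against K504E-red (SE 0.0868, adjusted p 0.00110 by edgeR). PAU17 fell by 0.45 in the same comparison (SE 0.183, adjusted p 0.0457 by edgeR), and its adjusted p by edgeR reached 0.177 without K504E-red replicate 2. It was also over 0.05 without WT-red replicate 1, K504E-red replicate 1, K504E-white replicate 2 or K504E-white replicate 3. PDR11 rose by 0.25 between the red groups (SE 0.0867, adjusted p 0.0240 by edgeR), a call lost when any of 6 libraries was left out, with an adjusted p by edgeR of up to 0.244 when K504E-red replicate 3 was left out. Against WT-red, in white colonies, 0 of the 4 passed by edgeR or DESeq2, where edgeR called 46.9% of all genes. Of the 4, 0 had an unadjusted p under 0.05. PAU3 has a copy at 98.1% identity in the reference strain, PAU19, so its reads are uncertain. Its log2 fold change in K504E-white against K504E-red was -0.79 (SE 0.342, adjusted p 0.0579 by edgeR), with overlapping groups, and was not called. It was called lower there by the Wald test of DESeq2 (adjusted p 0.0450), by limma, and by edgeR with a replicate block (adjusted p 0.0393). None of the 4 was called higher in K504E-white in either comparison. Of all genes, edgeR called 27.2% higher against K504E-red and 23.4% higher against WT-red. With only 4 genes tested, nothing is read from that count. DAN1, TIR1, TIR3 and TIR4 were called higher in both comparisons, and no test of that contrast was made.

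Other wall protein genes were a list of 16, of which 13 were tested. In K504E-white against K504E-red 9 rose and 2 fell, with a median of 0.29, which is 84.6% called against 54.5% of all genes. SED1, the major GPI-anchored wall protein of stationary cells, had 3835 ± 212 CPM in WT-red, against 4032 ± 84.7 in K504E-red and against 6857 ± 182 in K504E-white (SD, n = 3), and rose by 0.77 (SE 0.0562, adjusted p 6.45e-10 by edgeR). TIP1, which shares the protein family of the DAN and TIR genes, rose by 0.67 (SE 0.0623, adjusted p 1.87e-08 by edgeR). TOS6, also a GPI-anchored wall protein gene, rose by 0.67 (SE 0.0678). SPI1 fell by 0.25 (SE 0.0832) and PST1 fell by 0.24 (SE 0.0874). Both calls were lost without single libraries, with an adjusted p by edgeR of up to 0.0809 for SPI1 without K504E-white replicate 1 and up to 0.181 for PST1 without K504E-red replicate 3. The change of CWP1 in that comparison, 0.71, was thus close to those of SED1, TIP1 and TOS6.

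Between the red groups 3 wall genes rose and 5 fell, which is 61.5% called against 47.1% of all genes. PST1 rose by 0.59 (SE 0.0877), PIR3 by 0.56 (SE 0.134) and SPI1 by 0.51 (SE 0.0834). UTR2, a chitin transglycosylase gene, fell by 1.07 (SE 0.0647, adjusted p 1.46e-09 by edgeR), TOS6 by 0.83 (SE 0.0678) and TIP1 by 0.23 (SE 0.0621). In K504E-white against WT-red 9 rose and 2 fell, which is 84.6% called against 46.9% of all genes. SED1 was up by 0.84 (SE 0.0562), PIR3 by 0.80 (SE 0.134) and TIP1 by 0.45 (SE 0.0621), while UTR2 was down at -0.72 (SE 0.0641) and TOS6 at -0.17 (SE 0.0664). The number called there was 7 in place of 11 without K504E-white replicate 2 or replicate 3, and the call of TOS6 was among those lost without replicate 2 (adjusted p 0.103 by edgeR).

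The genes whose profile over the 9 libraries was most like the mean standardized profile of the 6 DAN and TIR genes were PUT4 (Pearson r 0.959), MEP2 (0.956), SIN3 (0.954), ECM22 (0.945) and MED2 (0.945), among 4898 genes ranked. PUT4, a proline permease gene, had 42.4 ± 3.12, 41.2 ± 7.78 and 88.2 ± 12.2 CPM in WT-red, K504E-red and K504E-white (SD, n = 3), and MEP2, an ammonium permease gene, 221 ± 20.0, 216 ± 28.7 and 376 ± 51.7 CPM. PUT4 and MEP2 were raised in white and nearly level between the red groups, which is the pattern of TIR3 and TIR4 more than that of DAN1 and TIR1. The mean profile weighs all 6 genes alike, DAN4 and TIR2 included. SIN3 differed by only 0.10 on the log2 scale in K504E-white against K504E-red, where the median absolute change over all genes was 0.22. For CWP1 the most alike were SCS2 (0.973), PHO2 (0.969), OCH1 (0.967), PTR2 (0.964) and SKY1 (0.964). OCH1, a mannosyltransferase gene of protein glycosylation in the Golgi, had 84.1 ± 3.45, 74.5 ± 3.51 and 107 ± 5.25 CPM in the same order of groups. The 9 libraries fall into 3 groups that differ in many genes, so these coefficients describe likeness and carry no test.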

How the data were processed

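RNA was measured in 9 poly(A) libraries of W303 yeast, 3 per group. The deposited counts are whole numbers per gene without normalization, and the deposited FPKM values are scaled by gene length and library depth, per the file headers. The aligner, the counting program and the use of strand are not given in the sources used here. Columns were assigned to samples from their names and the sample titles.

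The members and gene lists were chosen with earlier results of these data known. Symbols came from a RefSeq table of S288C R64, in which 5114 of 5205 genes were found by locus tag. A BLAST 2.17.0 search among the annotated coding sequences of S288C looked for copies with 95% identity or more over 100 bp or more. The S288C reference served for names and this search, and all coordinates are those of the W303 contigs.

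Genes were filtered with filterByExpr, which kept 5172 and removed 33, and 6 had no count in any library. Scaling was by TMM (factors 0.978 to 1.04). The counts went into the robust quasi-likelihood test of edgeR 4.0.16 in R 4.3.3, two-sided, in a model of all 9 libraries with group as the only term, with Benjamini-Hochberg adjustment over all genes of a comparison. A gene was called at an adjusted p under 0.05. SE came from the F statistic. CPM are counts scaled by the TMM library size. The planned ratio to CWP1 and CWP2 was taken to CWP1 alone.

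Genes named were all members, CDC13, ADE2, STE2 and STE3, and in each list and comparison up to 3 called genes per direction with the largest change. Other list genes (AUS1, COX5A, PAU3, TUP1, CYC8 in K504E-white against K504E-red, OLE1 and ANB1 in K504E-white against WT-red, FET4 between the red groups, CYC7, HMG2, and UPC2, MOT3 and HAP1 in K504E-white against WT-red) were named after their values were seen. Likeness was the Pearson r of log2 CPM (prior count 2) among genes with a mean of at least 10 CPM in a group.

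The alternatives were DESeq2 size factors, the Wald test of DESeq2 1.42.0, limma 3.58.1 on log2 of FPKM plus 1 or 0.1, filters of at least 1 count in any library or 10 in every library, a replicate block, a fit restricted to the compared groups, and omission of each library. Plots were drawn with matplotlib 3.10.9.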

Additional observations from a re-analysis of the deposited data

Results flagged for a closer look

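For DAN1, TIR1, TIR3 and TIR4, every K504E-red library lay below and every K504E-white library above every WT-red library. For TIR3 and TIR4 the margin between the red groups was small, with log2 fold changes of -0.32 and -0.27 that were not called. DAN4 and TIR2 did not follow the pattern. Every TIR2 library of K504E-red lay above every WT-red library, at 0.33, which was not called either. Groups did not overlap in 54.6% of all genes in K504E-red against WT-red and in 56.1% in K504E-white against WT-red. Those shares count either direction, and the share of all genes with both orders at once was not computed. The log2 fold change of K504E-white against K504E-red was 5.44 for DAN1, 5.16 for TIR1, 1.78 for TIR3 and 1.63 for TIR4. The 4 genes were called higher by edgeR in that comparison, where 27.2% of all genes were called higher. They were chosen with this difference known, so it was not tested independently. Both comparisons against the wild type use the same WT-red libraries.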

How the results depend on the processing

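No called result reversed under the alternatives run. TIR2, which was not called, was at -0.11 to 0.14 in K504E-white against WT-red without single libraries. For the sterol uptake and seripauperin list, the 1 call in K504E-red against WT-red became 0 with either count filter (at least 1 or at least 10 counts) and with only the groups compared, and 0 to 1 when single libraries were left out. Its 2 calls in K504E-white against K504E-red became 1 with DESeq2 size factors and 1 to 3 without single libraries. The aerobic partners had 1 call in place of 2 in K504E-white against WT-red with either filter, and without single libraries 0 to 2 there, 1 to 2 between the red groups and 1 to 2 between the mutant groups. Other wall genes called in K504E-white against WT-red numbered 7 to 11 without single libraries. The DAN and TIR median was then 1.17 to 1.52 against WT-red and 1.50 to 1.84 against K504E-red, lowest without K504E-white replicate 1. The log2 ratio of summed DAN and TIR to CWP1 was -0.33, 1.22 and 1.55 by CPM without length, and 0.79 and 1.52 in the white comparisons by a geometric mean. Beyond the weighting named for the ratio, the cause was not tested. The 3 comparisons called 2024 to 2338, 2121 to 2471 and 2505 to 2839 genes without single libraries. Of the called genes, 54.2% were higher in K504E-red against WT-red, and 45.9% with genes of at least 1 count retained. DAN1 stood at -2.63 and 4.80 by limma on log2(FPKM + 1), where the pseudocount shrinks low values. Of 91 calls of list genes, 19 were lost under at least 1 alternative and 0 changed sign. DAN1 in K504E-red rests on 35 to 61 counts, the thinnest of the members.

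Same-numbered libraries of different groups did not deviate together more than others (r of deviations -0.110 to 0.0274, against -0.113 to 0.135 for other pairs). With 3 libraries per group, these values cannot exclude that same-numbered libraries were handled together. With a replicate block, 2390, 2377 and 2773 genes were called in the 3 comparisons, the DAN and TIR medians were -0.29, 1.39 and 1.68, and 1 of the 6 DAN and TIR genes was called higher and 3 lower between the red groups.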
